A study of Saccharomyces cerevisiae with 4 samples.

Results

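The 43 genes described here encode the machinery that moves new proteins into the endoplasmic reticulum and carries them in coated vesicles through the Golgi to the cell surface of budding yeast (Saccharomyces cerevisiae). They were taken by systematic name from the reading frames of translocation, signal peptidase, the COPII coat, p24 and other cargo receptors, the COPI coat, the Arf and Rab GTPases, and the SNARE proteins with their fusion factors. Of the 43 genes, 41 had a row in the table of 6207 reading frames, and SBH1 (YER087C-B) and ERP1 (YAR002C-A) had none. A value on all 4 arrays was present for 33 of the 41 (80.5%), against 3080 of all 6207 reading frames (49.6%), and these 33 were tested.

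Each array compared a wsc1 mutant of the BY4741 background grown with Congo Red at 30 µg/ml with the same mutant grown without it. The Wsc1 protein sits in the plasma membrane and senses damage to the wall, and Congo Red is a dye that binds wall polymers and disturbs their assembly. Cultures grew in YEPD at 24 °C, were divided, and were collected at 4 h, and treated and untreated parts both carried the wsc1 mutation, so the values describe the mutant alone. RNA came from 2 cultures, each hybridised with the fluorochromes in either order, with Congo Red RNA in Cy5 on arrays 2 and 4 and in Cy3 on arrays 1 and 3. Which arrays share a culture is not stated in the labels, nor is the nature of the mutation, and the WSC1 row (YOR008C) had a value on 0 arrays. Each ratio compares bulk RNA, so fewer cells that express a gene and less of its RNA per cell cannot be told apart.

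In yeast nearly all wall proteins, glucan-modifying enzymes and plasma membrane proteins reach the surface by this route. A protein with a signal sequence enters the endoplasmic reticulum through the Sec61 channel and loses its signal to signal peptidase. COPII-coated vesicles carry it to the Golgi, COPI-coated vesicles return escaped components, and SNARE proteins, guided by Rab GTPases, fuse vesicles with the next membrane.

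Values are log ratios of Congo Red over untreated cells, read as log2 and called log units, since the base is not stated in the labels. The sign is likely rather than settled. It rests on known transcriptional targets of the cell wall integrity pathway, of which 23 of 25 tested lay above 0 on all 4 arrays, with a median of 1.30. With arrays 2 and 4 turned, as would be right if they had been left as channel ratios, 0 of these 25 had a single sign. These targets set the sign, so their direction is no result. Across all 3080 tested reading frames, Congo Red changed 80 (2.60%) at an adjusted p below 0.05, with 47 higher (1.53%) and 33 lower (1.07%), against 4 higher and 0 lower once each array was centred on its median. The number of values per array ran from 3254 to 4991 and the median of all tested means was -0.10.

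None of the 33 measured secretory genes passed the test for Congo Red (0 of 33, against 2.60% of all tested reading frames), although 4 had an unadjusted p below 0.05 (12.1%, against 26.2%). Among these 4, SEC28 and SNC2 lay above 0 (6.06%, against 7.79%) and SEC11 and SEC23 below (6.06%, against 18.4%). A second limma fit took the 4 arrays singly with a term for dye order and is called the single-array fit here. It counts arrays of the same culture as independent, which they are not. Its p-values may therefore be too small, and its calls carry less weight than those on culture means. It called 1 of the 33 (3.03%, against 10.4%), which was SEC28, with 1 higher (against 3.93%) and 0 lower (against 6.46%). The median of the 33 means was -0.06 log units, beside -0.10 for all tested reading frames, and 12 lay above 0 and 21 below. SEC28, at 0.52, had the only mean at least 0.5 log units from 0 (3.03%, against 8.51%), and the others lay between -0.34 and 0.28.

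The 95% intervals show what size of change these arrays leave possible. They came from the limma fit on culture means, are not adjusted for the number of genes, and had a median half-width of 0.25. For all 33 genes the interval stayed within 1 log unit of 0 (94.4% of all tested reading frames did), and for 26 of them within 0.5 log units (78.8%, against 63.1%). The lowest bound was -0.69, for SEC1, and the highest was 0.77, for SEC28. A change of 1 log unit is a doubling or halving if the base is 2. These intervals draw largely on a variance pooled over all genes, since 2 cultures say little about the spread of a single gene. The narrowest half-width was 0.23, both for the 33 genes and for all tested reading frames.

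**Figure D1:**
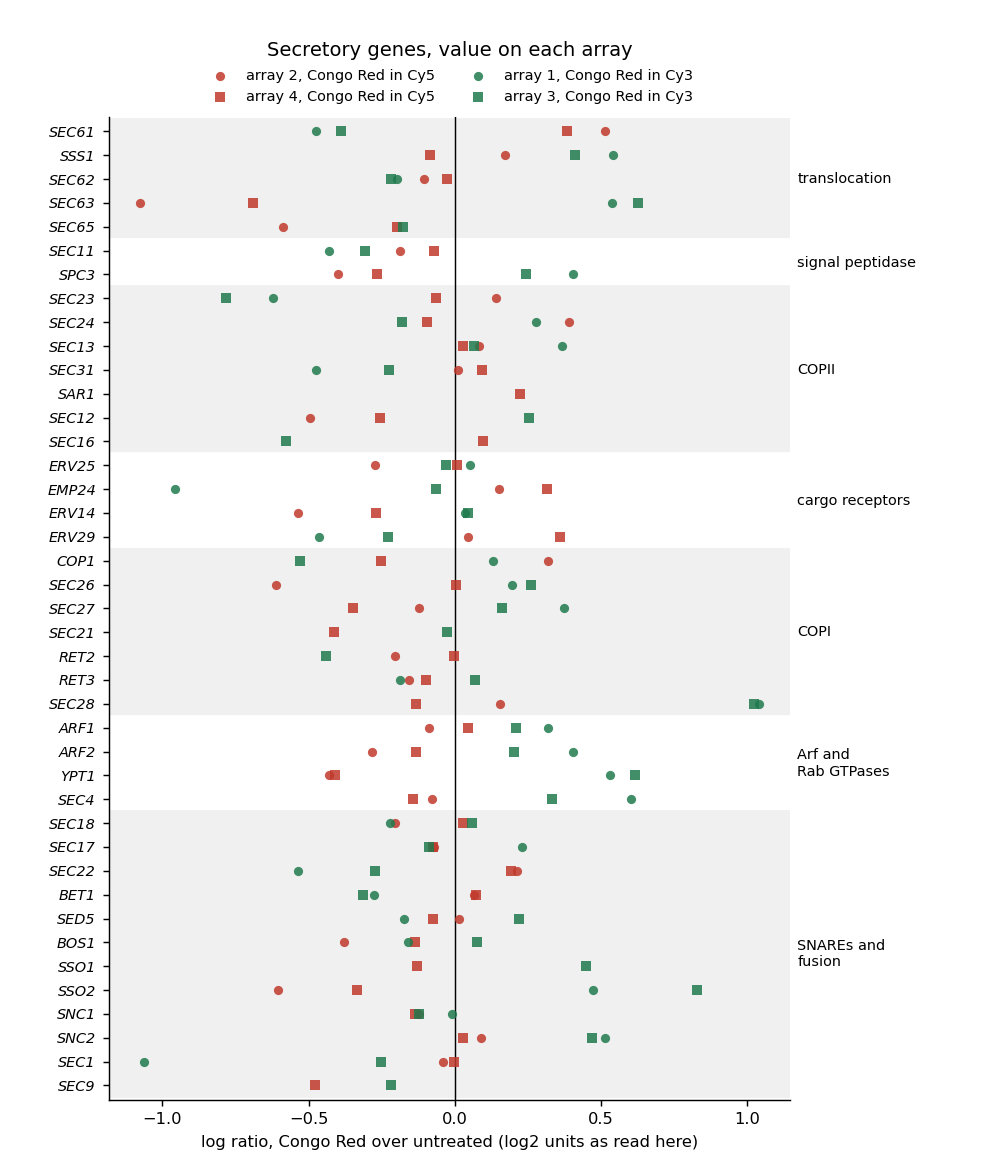
Log ratio of Congo Red over untreated (horizontal axis, log units) for the 41 secretory genes with a row, by transport step, with a point for each array that gave a value. Red points are arrays with Congo Red RNA in Cy5 and green points arrays with it in Cy3, and for SEC63, YPT1 and SSO2 the colours lie on opposite sides of 0.

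Entry into the endoplasmic reticulum was represented by 4 tested genes, and their means ran from -0.15 to 0.26. SEC61 (YLR378C), which encodes the pore of the channel, had -0.48, 0.51, -0.39 and 0.38 on arrays 1 to 4. Its sign was that of the dye order, above 0 on both Cy5 arrays and below 0 on both Cy3 arrays, and its mean was 0.0079 (95% interval -0.22 to 0.24, adjusted p = 0.958). SSS1 (YDR086C), a small subunit bound to the pore, had 0.54, 0.17, 0.41 and -0.09, with a mean of 0.26 ± 0.10 (moderated SE, n = 2 cultures, adjusted p = 0.191). The dye differences of the 2 channel subunits had opposite signs, though that of SSS1 (-0.43, adjusted p = 0.121) was not called.

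SEC63 (YOR254C), whose product couples the channel to the chaperone Kar2, gave the largest dye difference of the 33 genes. It had 0.54, -1.08, 0.63 and -0.69 on arrays 1 to 4, so the 4 values had a mean of -0.15 (95% interval -0.43 to 0.12, adjusted p = 0.372) that none of them was near. SEC62 (YPL094C), its partner in translocation after synthesis, stayed close to 0 on every array, at -0.20, -0.10, -0.22 and -0.03. SEC65 (YML105C), a subunit of the signal recognition particle that brings ribosomes to the membrane, was measured on arrays 2 to 4 at -0.59, -0.18 and -0.20 and was not tested.

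Both signal peptidase genes were measured. SEC11 (YIR022W), the catalytic subunit, had -0.43, -0.19, -0.31 and -0.07 on arrays 1 to 4. All 4 values lay below 0, with a mean of -0.25 ± 0.09 (n = 2 cultures, adjusted p = 0.184). SPC3 (YLR066W), a subunit needed for activity, had 0.40, -0.40, 0.24 and -0.26, which average -0.0040 (95% interval -0.23 to 0.23, adjusted p = 0.981) and change sign with the dye.

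The COPII coat forms vesicles at the endoplasmic reticulum, and 4 of its 7 genes could be tested. SEC23 (YPR181C) encodes the inner coat subunit that activates the GTPase of Sar1. It had -0.62, 0.14, -0.78 and -0.07 on arrays 1 to 4, low on the Cy3 arrays and near 0 on the Cy5 arrays, and its mean was -0.33 ± 0.10 (n = 2 cultures, adjusted p = 0.152). SEC24 (YIL109C), the inner subunit that selects cargo, had a mean of 0.10, with 0.28 and 0.39 on arrays 1 and 2 and -0.18 and -0.09 on arrays 3 and 4. The products of SEC23 and SEC24 form a pair, and their means differed in sign, but the intervals overlap (-0.59 to -0.07 for SEC23 and -0.28 to 0.47 for SEC24) and the difference was not tested.

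The means of the outer cage genes also had opposite signs. SEC31 (YDL195W) had -0.48, 0.01, -0.23 and 0.09, with a mean of -0.15 (95% interval -0.40 to 0.10, adjusted p = 0.348). SEC13 (YLR208W), which also encodes a nuclear pore component, had 0.36, 0.08, 0.07 and 0.03 and was above 0 on all 4 arrays, with a mean of 0.13 (95% interval -0.12 to 0.39, adjusted p = 0.389). Array 1 held the highest of these by a wide margin. The regulators of coat assembly were measured in part. SAR1 (YPL218W), the GTPase that starts the coat, had 0.22 on array 4 alone. SEC12 (YNR026C), the factor that loads Sar1 with GTP, had -0.50, 0.25 and -0.26 on arrays 2 to 4, and SEC16 (YPL085W), the scaffold of exit sites, had -0.58 and 0.09 on arrays 3 and 4.

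All 4 tested cargo receptor genes had means below 0, from -0.18 to -0.06, which lies within 0.1 log units of the median of all tested reading frames. ERV14 (YGL054C), the receptor for many plasma membrane proteins, had 0.03, -0.54, 0.05 and -0.27, with a mean of -0.18 (95% interval -0.43 to 0.07, adjusted p = 0.271). EMP24 (YGL200C), a p24 protein needed for export of GPI-anchored proteins, had -0.96 on array 1 and -0.06 on array 3, against 0.15 and 0.32 on arrays 2 and 4. Its mean of -0.14 (95% interval -0.54 to 0.26, adjusted p = 0.567) carries the wide spread between the Cy3 arrays. The single-array fit did not call EMP24 with all arrays (adjusted p = 0.534). That estimate ranged from 0.084 without array 1 to -0.36 without array 3, each with 1 array left in the Cy3 order. ERV25 (YML012W), the p24 partner of EMP24, stayed between -0.27 and 0.05, and ERV29 (YGR284C), a receptor for soluble cargo, had -0.46, 0.04, -0.23 and 0.36 with a mean of -0.07.

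COPI coats vesicles that return from the Golgi, and SEC28 stood apart from the other subunits. SEC28 (YIL076W), the epsilon subunit, had 1.04 and 1.02 on arrays 1 and 3, both Cy3, and 0.15 and -0.13 on arrays 2 and 4, both Cy5. Its mean of 0.52 ± 0.09 (n = 2 cultures, 95% interval 0.27 to 0.77) corresponds to 1.43-fold if the base is 2 and was not called (adjusted p = 0.079). The mean lies between 2 clusters of values, since the gene was about 1 log unit above 0 in 1 dye order and near 0 in the other. The single-array fit called it (adjusted p = 0.0222), but the call did not hold without array 2 or without array 4. Nearly all Congo Red calls of that fit over all tested reading frames were lost there too. The estimate was 0.52 without array 1, 0.45 without array 2, 0.53 without array 3 and 0.59 without array 4. Each of these fits leaves 1 array in 1 dye order. Limma on the 4 arrays with no dye term did not call SEC28 (adjusted p = 0.328). It was called by the fit that takes arrays 1 and 4 as 1 culture and arrays 2 and 3 as the other (adjusted p = 0.0127). That fit called 25.6% of all tested reading frames.

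The other coatomer genes were near 0. COP1 (YDL145C, alpha), SEC26 (YDR238C, beta), SEC27 (YGL137W, beta prime) and RET3 (YPL010W, zeta) had means of -0.08, -0.04, 0.02 and -0.09. RET3 varied least, with -0.19, -0.16, 0.07 and -0.10 on arrays 1 to 4. COP1 had 0.13 and 0.32 on arrays 1 and 2 against -0.53 and -0.25 on arrays 3 and 4, a split that does not follow the dye and gives the widest interval of the 33 genes (-0.53 to 0.36). SEC21 (YNL287W, gamma) had -0.03 and -0.41 on arrays 3 and 4, and RET2 (YFR051C, delta) had -0.20, -0.44 and -0.0033 on arrays 2 to 4. Neither was tested.

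The 4 GTPase genes had means above 0, from 0.05 to 0.18, and all were higher on the Cy3 arrays. SEC4 (YFL005W), the Rab that guides vesicles to sites of growth, had 0.60, -0.08, 0.33 and -0.14, with a mean of 0.18 (95% interval -0.07 to 0.43, adjusted p = 0.285). YPT1 (YFL038C), the Rab of the step from endoplasmic reticulum to Golgi, had 0.53, -0.43, 0.62 and -0.41 and a mean of 0.08 (adjusted p = 0.583). In YPT1 the dye order alone separated the arrays, with the same-order values within 0.1 log units of each other.

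ARF1 (YDL192W) and ARF2 (YDL137W) are paralogs whose products recruit the COPI coat. ARF1 had 0.32, -0.09, 0.21 and 0.04 on arrays 1 to 4, with a mean of 0.12 (adjusted p = 0.397), and ARF2 had 0.40, -0.28, 0.20 and -0.13, with a mean of 0.05 (adjusted p = 0.734). The ratio of ARF1 minus that of ARF2 averaged 0.07 and was above 0 on 3 of 4 arrays. Near-identical genes can share signal on an array, and the kind of probe is not stated in the labels, so the values of the 3 paralog pairs here may not be separate.

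Of the 12 SNARE and fusion genes, 10 were tested, and their means ran from -0.34 to 0.28. SEC18 (YBR080C) and SEC17 (YBL050W), the ATPase and its adaptor that take used SNARE complexes apart at every step, had means of -0.09 and -0.0024, with all values between -0.22 and 0.23. The SNAREs of the first step also lay near 0. SED5 (YLR026C), BOS1 (YLR078C), BET1 (YIL004C) and SEC22 (YLR268W) had means of -0.0044, -0.15, -0.11 and -0.10. SEC22 had -0.54, 0.21, -0.27 and 0.19 and BET1 had -0.28, 0.06, -0.31 and 0.07, so these 2 were above 0 on the Cy5 arrays and below 0 on the Cy3 arrays.

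At the plasma membrane the paralogs SNC1 and SNC2, the vesicle SNAREs of exocytosis, had single and opposite signs in the uncentred values. SNC2 (YOR327C) had 0.51, 0.09, 0.47 and 0.03, all above 0, with a mean of 0.28 ± 0.09 (n = 2 cultures, adjusted p = 0.166). SNC1 (YAL030W) had -0.011, -0.12, -0.12 and -0.14, all below 0, with a mean of -0.10 (95% interval -0.33 to 0.14, adjusted p = 0.488). That mean is no lower than the median of all tested reading frames (-0.10). With each array centred on its median, the means were -0.0084 for SNC1 and 0.37 for SNC2. SNC2 minus SNC1 was 0.52, 0.21, 0.59 and 0.17 on arrays 1 to 4, above 0 on 4 of 4 and larger on the Cy3 arrays, with a mean of 0.37. This difference was not tested.

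SSO2 (YMR183C), a plasma membrane SNARE, had 0.47, -0.60, 0.83 and -0.33, with a mean of 0.09 (95% interval -0.21 to 0.39, adjusted p = 0.618). Its paralog SSO1 (YPL232W) had 0.45 and -0.13 on arrays 3 and 4, the same order of signs, and was not tested. SEC9 (YGR009C), the third SNARE of that complex, had -0.22 and -0.48 on the same arrays. SEC1 (YDR164C), which binds the assembled complex, had -1.06, -0.04, -0.25 and -0.0023, and its mean of -0.34 ± 0.13 (n = 2 cultures, adjusted p = 0.198) rests on array 1. The single-array fit did not call the gene with all arrays (adjusted p = 0.15). It gave -0.14 without array 1 and -0.54 without array 3, each with 1 array left in the Cy3 order.

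**Figure D2:**
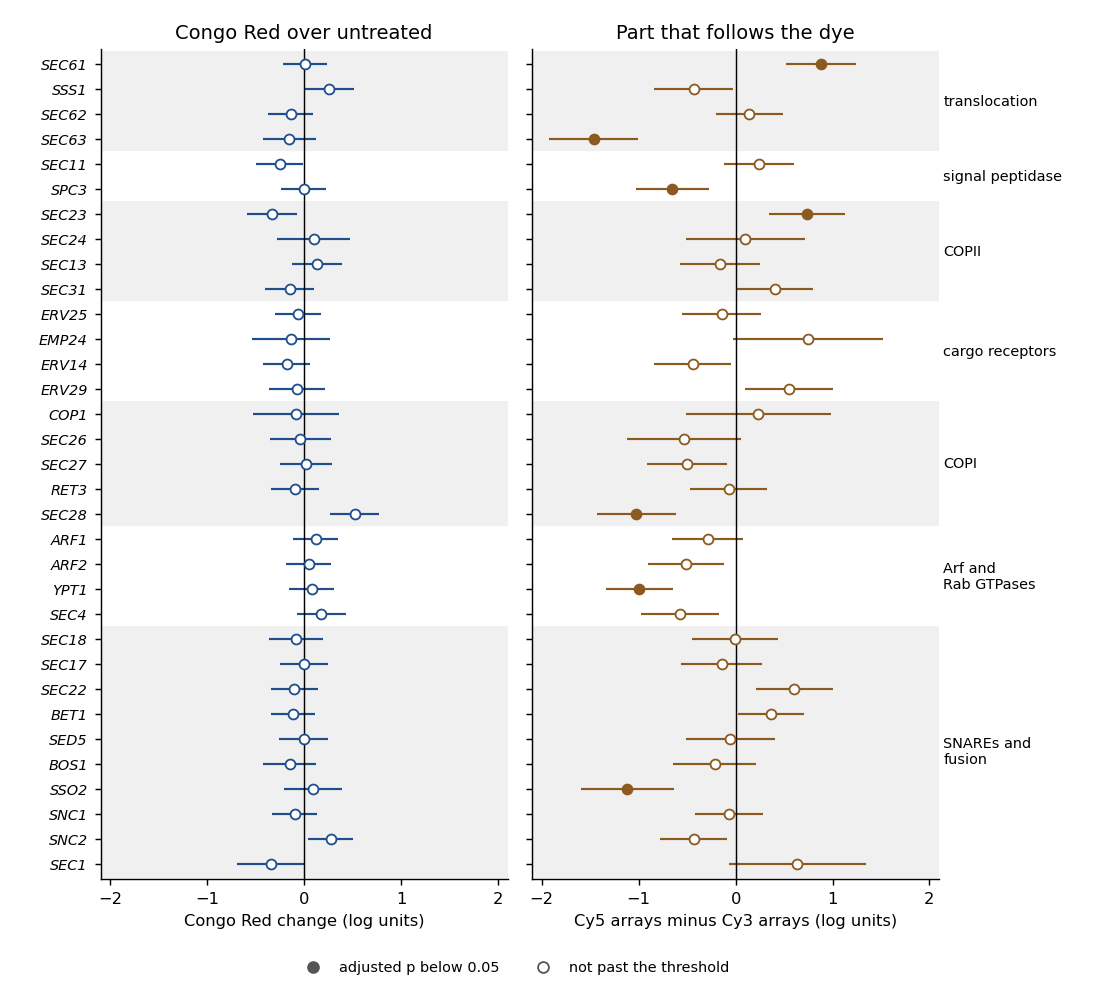
Congo Red change (left) and Cy5 minus Cy3 difference (right) of the 33 tested secretory genes, in log units, with 95% intervals from limma as horizontal lines. No filled point, which marks an adjusted p below 0.05, appears at left, and 7 appear at right, from SEC63 at -1.47 to SEC61 at 0.88.

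The arrays differed more by dye order in these genes than by Congo Red. A dye swap separates both parts, and the mean of the Cy5 arrays minus the mean of the Cy3 arrays was tested in the single-array fit. This difference was called for 7 of the 33 genes (21.2%), against 493 of all tested reading frames (16.0%). Of the 7, SEC61 and SEC23 were higher in Cy5 (6.06%, against 7.86%), and SEC63, SSO2, SEC28, YPT1 and SPC3 were higher in Cy3 (15.2%, against 8.15%). The share called is near that of all genes, and arrays of the same culture are not independent.

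SEC63 averaged -0.88 on the Cy5 arrays and 0.58 on the Cy3 arrays, a difference of -1.47 (95% interval -1.92 to -1.01, adjusted p = 0.0218). For SSO2 the averages were -0.47 in Cy5 and 0.65 in Cy3 (difference -1.12, adjusted p = 0.026), and for YPT1 they were -0.42 and 0.57 (difference -0.99, adjusted p = 0.0226). SEC28 averaged 0.0095 in Cy5 and 1.03 in Cy3 (difference -1.02, adjusted p = 0.0244). These 4 genes were all higher in the Cy3 order. SEC61 averaged 0.45 in Cy5 and -0.43 in Cy3 (difference 0.88, adjusted p = 0.025), SEC23 averaged 0.04 and -0.70 (difference 0.74, adjusted p = 0.0378), and SPC3 averaged -0.33 and 0.32 (difference -0.66, adjusted p = 0.0441). The median size of the dye difference was 0.43 for the 33 genes and 0.34 for all tested reading frames. Since the difference spans both orders, a single array carries 0.22 log units of it at the median of the 33 genes, whereas the median size of the Congo Red mean was 0.10 for the 33 and 0.17 for all.

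The signs show the same. Of the 33 genes, 14 had 1 sign on both Cy5 arrays and the other on both Cy3 arrays (42.4%, against 28.7% of all tested reading frames). Of these, 6 were above 0 in Cy5 (18.2%, against 12.3%) and 8 above 0 in Cy3 (24.2%, against 16.4%). A further 6 had a single sign on all 4 arrays without centring (18.2%, against 28.4%). These were SEC13 and SNC2 above 0 (6.06%, against 7.44%), and SEC62, SEC11, SNC1 and SEC1 below (12.1%, against 21.0%). No test compares these shares with those of other genes.

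**Figure D3:**
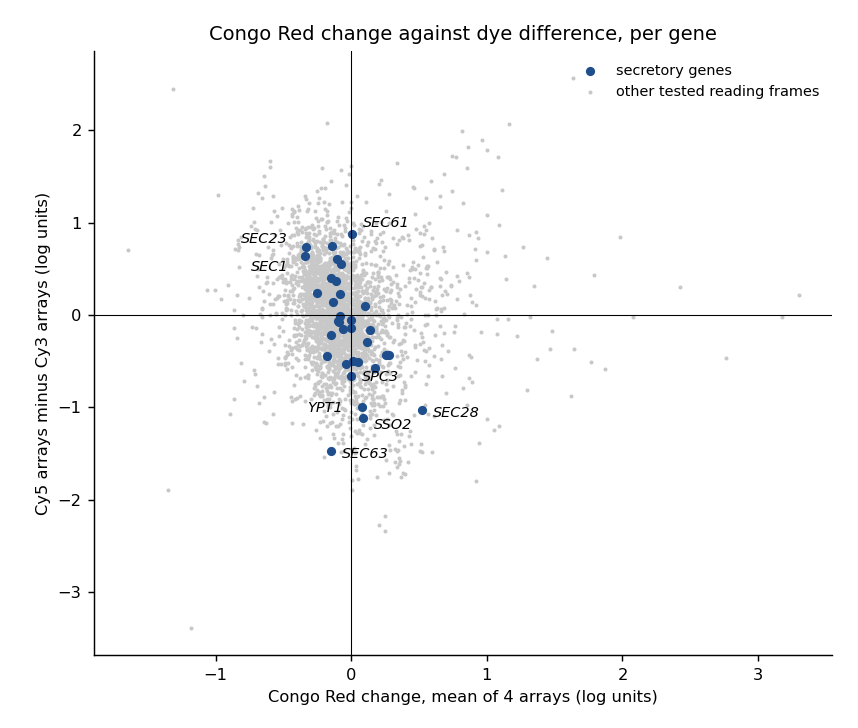
Mean Congo Red change (horizontal axis, log units) against the Cy5 minus Cy3 difference (vertical axis, log units) for the 3080 tested reading frames, with the 33 secretory genes in blue. The secretory genes form a column that is narrow along the Congo Red axis, with SEC28 at 0.52 to its right, and that reaches from -1.47 to 0.88 along the dye axis.

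Which part is Congo Red and which is dye depends on how the ratios were turned before deposit. If arrays 2 and 4 hold channel ratios and are turned, the means become 0.73 for SEC63, 0.56 for SSO2, 0.50 for YPT1, 0.51 for SEC28 and -0.44 for SEC61. Limma on culture means then gave an adjusted p of 0.0832 for SEC63, YPT1, SEC28 and SEC61 and 0.0841 for SSO2. It called 0 of the 33 and 0 of all 3080 tested reading frames. SEC28 keeps nearly the same mean under either reading, since it is far from 0 on the Cy3 arrays alone. The secretory genes do not settle the reading, which was taken from the cell wall integrity targets.

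Across the 33 genes, arrays of the same dye order resembled each other and arrays of opposite order did not. Pearson's r was 0.76 for arrays 1 and 3 and 0.66 for arrays 2 and 4, and it ran from -0.59 to -0.29 for the 4 pairs of opposite order. Over all 3080 tested reading frames the same-order values were 0.64 and 0.71 and the opposite-order values ran from -0.05 to 0.33. Spearman's rho over all of them was -0.26 to 0.10 for opposite orders, and -0.62 to -0.26 over the 33 genes. These are descriptions across genes that share arrays and cultures, and genes are not independent replicates.

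**Figure D4:**
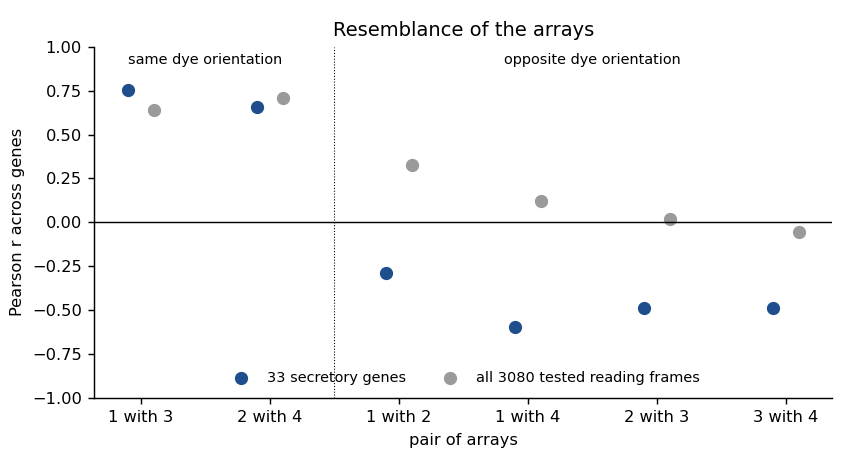
Pearson's r across genes for each pair of arrays, with the 33 secretory genes in blue and all 3080 tested reading frames in grey. The blue points are at 0.76 and 0.66 for pairs of the same dye order and between -0.59 and -0.29 for pairs of opposite order.

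A further 118 genes of the secretory route were listed in 8 groups, and 72 had a value on all 4 arrays. Of the 72, 0 rose (against 1.53% of all tested reading frames), 1 fell (against 1.07%) and 71 were not called. Their median was -0.09 (all tested: -0.10). An unadjusted p below 0.05 was found for 12, all below 0 (16.7%, against 18.4% of all tested reading frames below 0), and for 0 above 0 (against 7.79%). The single-array fit called 4 of the 72, all lower (5.56%, against 6.46%): SRP54, YKL154W, YIF1 and TRS23. The gene that fell was TRS23 (YDR246W), a subunit of the TRAPP tether that also activates Ypt1. It had -0.49, -1.12, -0.34 and -0.91 on arrays 1 to 4, below 0 on each, and a mean of -0.71 ± 0.10 (n = 2 cultures, adjusted p = 0.0478). The call was lost after centring (mean -0.63, adjusted p = 0.1). In the single-array fit the estimate ran from -0.77 to -0.66 with each array left out in turn. The call of that fit did not hold without array 2 or without array 4. Nearly all of its Congo Red calls over all tested reading frames were lost there too. Of the 20 Golgi tether genes only 4 could be tested, so little can be said of that group.

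Among 13 tested genes of translocation and signal processing beyond those above, the fit on culture means called 0 (against 2.60% of all tested reading frames). The single-array fit called 2 as lower, SRP54 and YKL154W (against 6.46% of all). SPC1, a signal peptidase subunit, had the largest mean at 0.45, but with 0.87, 1.28, -0.50 and 0.13 on arrays 1 to 4 its interval ran from -0.37 to 1.26. SRP54, the signal-binding subunit of the signal recognition particle, was at -0.38 (adjusted p = 0.119 on culture means and 0.041 in the single-array fit), and YKL154W, a subunit of its receptor, was at -0.33 (0.0441 in the single-array fit). KAR2, the chaperone that Sec63 recruits, was at 0.02 and had a called dye difference of the same direction as that of SEC63 (-0.94, adjusted p = 0.024). Of 7 oligosaccharyltransferase genes, which add N-glycans, STT3 at -0.31 and OST3 at -0.20 lay farthest from 0 and neither was called for Congo Red in either fit. OST3 had a called dye difference of 1.23 (adjusted p = 0.0224).

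Of 14 tested genes of COPII and cargo export, YIF1, a membrane protein that binds Rab GTPases, was lowest at -0.51 (adjusted p = 0.107 on culture means, but 0.041 in the single-array fit), and YIP1, its partner, was at -0.21. Of 8 genes of retrieval and Arf regulation, the SNARE gene SEC20 and the tether gene TIP20, whose products bind each other, were at -0.36 and -0.26. The 10 tested Golgi SNARE and Rab genes included GOS1 at -0.36 and VTI1 at 0.16, and 6 of the 10 had a called dye difference, against 16.0% of all tested reading frames. Both GOS1 (0.90, adjusted p = 0.0306) and VTI1 (-0.91, adjusted p = 0.0279) were among the 6.

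Of 6 tested genes of exocytosis, the exocyst subunits SEC8 and EXO84 were at -0.33 and -0.27, and of 10 genes of clathrin and its adaptors APL5 and APL1 were at -0.37 and -0.34. On culture means none of these 4 was called (adjusted p from 0.147 to 0.359), and SEC8 had a called dye difference (0.70, adjusted p = 0.0406).

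**Figure D5:**
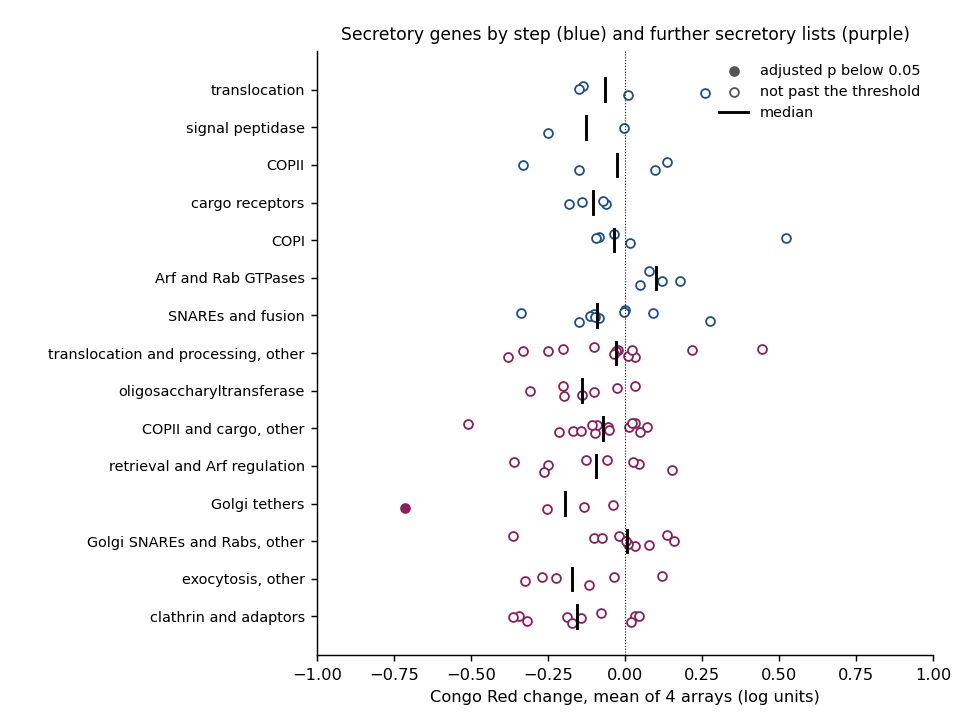
Mean Congo Red change (horizontal axis, log units) of each tested gene, for the 7 transport steps of the 33 genes (blue) and for 8 further secretory lists (purple), with a black bar at each median. TRS23 at -0.71, the filled point, is the 1 gene past the threshold on culture means, and SEC28 at 0.52 lies farthest from 0 among the blue points.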

How the data were processed

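The deposited table gives, for each reading frame and array, a log ratio of the 2 channels, read here as log2; per the labels, 2 channels with swapped dyes were hybridised. Base, numerator, background correction, normalization, probe type and the reason for empty cells are not stated in any source used. Depth cannot be seen in ratios, and the number of arrays limits precision. After 2 control rows were left out, values were used without further normalization. Symbols came from RefSeq assembly R64 by locus tag (5654 of 6207 matched, and all 43 members).

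The 3080 reading frames with 4 values were fitted with limma 3.58.1 in R 4.3.3 on means of 2 arrays of opposite dye (the 2 cultures). Both possible pairings, 1 with 2 and 3 with 4 or 1 with 4 and 2 with 3, were run. The larger p, SE and interval were kept, with Benjamini-Hochberg adjustment over all 3080 and a threshold of 0.05. Dye differences came from limma on 4 arrays with a dye term. All tests are two-sided, and nothing says that replicates reflect more than these 2 cultures.

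Tested on simulated data (10 runs of 3080 genes, Congo Red against untreated), the culture fit called 94.4% of changes of 1 log unit, 44.4% of 0.5 and 0.198% of unchanged genes. The dye term called 48.6% of dye differences of 1 log unit. Simulated noise was independent between arrays, with none shared within a culture, and fewer genes carried a dye difference than were called here. These rates may therefore differ from those on the real arrays.

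Members, lists and tests were chosen with earlier results of these data known. Described array by array are, per step, the 2 tested genes with the largest mean, paralog pairs, genes with a called dye difference and incompletely measured genes; SEC62, SEC24, SEC13, ERV29, COP1, SEC22 and BET1 were added after their values were seen. From each further list, called genes or otherwise the 2 largest means are named, and KAR2 and YKL154W were chosen after their values were seen. Alternatives were centring, scaling, 3 arrays sufficing, each pairing alone, single arrays with or without a dye term, turning arrays 2 and 4, and leaving out each array.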

Additional observations from a re-analysis of the deposited data

Results flagged for a closer look

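In 3 genes a single array lay apart from the other 3 by Dixon's test at its 95% level, out of 48 genes checked, of which chance alone flags about 5%. All 3 were array 1, which has Congo Red in Cy3. SEC13 had 0.36 on array 1 and 0.03 to 0.08 on the others. SEC17 had 0.23 on array 1 and -0.09 to -0.07 on the others. SNC1 had -0.011 on array 1 and -0.14 to -0.12 on the others, a gap that is small in size. No cause was tested.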

How the results depend on the processing

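The count of secretory genes called for Congo Red was 0 and stayed 0 with centring, scaling, values on 3 arrays, arrays 1 and 2 as a culture, single arrays without a dye term and arrays 2 and 4 turned. It was 3 with arrays 1 and 4 as a culture (SEC28, SNC2 and SEC23) and 1 with single arrays and a dye term (SEC28). Leaving out each array in turn gave 0 to 3. The median of -0.06 became 0.028 after centring and 0.071 with arrays 2 and 4 turned, and ran from -0.094 to -0.026 without each array. Centring changed the sign of 8 of 33 means and turning that of 13, none of them called. Dye differences were called for 7 genes, 8 after centring, and 0 to 10 without each array, with 0 when array 2 or array 4 was left out. Over all tested reading frames the 80 calls became 4 (centring), 53 (scaling), 19 (3 arrays), 787 (arrays 1 and 4 as a culture), 320 (dye term), 36 (no dye term), 0 (turned) and 13 to 823 (without each array), and the share higher, 58.8%, ran from 32.0% to 100.0% where any were called. Dye differences were called for 493 of all tested reading frames, and for 573 after centring. Nearly all of these calls were also lost when array 2 or array 4 was left out. The loss was thus not particular to the secretory genes. The causes were not tested. TRS23, whose alternatives were run after seeing the data, kept its sign except with arrays 2 and 4 turned (0.30, adjusted p = 0.146). It also lost its call after centring, when values on 3 arrays sufficed (adjusted p = 0.0984) and on single arrays without a dye term (adjusted p = 0.118). SEC28 lay between 0.43 and 0.61 under every alternative. Each ratio already compares treated with untreated cells on the same array, so the fits on ratios are paired by design. No further pairing was made.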
